A study of Mus musculus with 8 samples.

Results

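The genes of the mitochondrial genome were compared between haematopoietic stem cells (HSCs) of Nynrin CKO mice and controls. They are the 37 of 55401 gene records whose name starts with mt-, and comprise 13 protein-coding genes, 2 rRNA genes and 22 tRNA genes. HSCs, the marrow cells that maintain all blood lineages, came from the bone marrow of C57BL/6 mice at 8 weeks of age, and RNA of sorted cells was sequenced in 4 libraries a group. Nynrin CKO mice carried floxed Nynrin alleles and Cre recombinase under control of Tie2, a gene used by blood cells and by endothelium. Control mice, whose genotype label reads wild type, had the same floxed alleles and no Cre. Because the controls lacked Cre, an effect of Cre and one of Nynrin loss cannot be told apart. The series title ties Nynrin to the permeability transition pore, a channel of the inner mitochondrial membrane, and the comparison asks how transcripts made inside mitochondria differ where Nynrin is deleted.

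Mouse mitochondrial DNA is a small circle transcribed on both strands into long precursors by a dedicated RNA polymerase. The tRNAs lie between most mRNAs and rRNAs, and cutting at their ends frees the other transcripts, most of which then receive poly(A) tails. All of the proteins encoded are core parts of the respiratory chain or of ATP synthase, and the rRNAs and tRNAs serve the ribosomes that make them. On the plus strand of the reference lie 12 mRNAs, both rRNAs and 14 tRNAs, and on the minus strand lie mt-Nd6 and 8 tRNAs.

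Nynrin itself measured 12.7, 12.3, 8.24 and 8.22 CPM in Nynrin CKO 1 to 4. In controls 1 to 4 it stood at 41.3, 47.5, 30.1 and 30.4 CPM. Nynrin RNA was thus lower in every Nynrin CKO library than in any control, the direction the labels give. Some Nynrin RNA remained in each Nynrin CKO library, and gene counts do not show the deletion itself. CPM are read counts relative to library size, scaled between libraries by TMM factors. Total counts ran from 43998525 to 56437299 in Nynrin CKO and from 36942835 to 50260720 in controls. Nynrin CKO 3 and 4 and control 4 had 177 to 216 CPM in sum over the receptor genes of smell and pheromone sensing, whereas the other 5 libraries had 873 to 1449 CPM. The libraries are accordingly divided below into a set with few receptor reads and a set with more. Nynrin CKO 1 resembled 2 closely, as 3 resembled 4, and the labels do not say that libraries came from separate mice, so the p-values rest on spread among libraries that may be technical. Xist, transcribed from the inactive X chromosome, stood at 6.83 to 8.02 CPM in Nynrin CKO, against 11.4, 5.83, 4176 and 4280 CPM in controls 1 to 4, so controls 3 and 4 differed from all other libraries. Of 12 HSC markers, among them Kit, Mecom and Procr, all were detected, summing to 4762 to 5937 CPM in Nynrin CKO and 4388 to 4998 CPM in controls.

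Levels along the mitochondrial genome spanned several orders of magnitude. Per kb of gene, mt-Rnr2 (MT:1094-2675, mm10), the large ribosomal RNA, averaged 23163 ± 12397 CPM in Nynrin CKO and 16802 ± 2942 CPM in controls (SD, n = 4 each). The small ribosomal RNA, mt-Rnr1 (MT:70-1024), averaged 258 ± 51.6 CPM per kb in Nynrin CKO and 201 ± 47.3 CPM per kb in controls, although a ribosome holds a single copy of each. Among mRNAs, mt-Co1, mt-Cytb and mt-Atp6 had the highest levels over all 8 libraries, at 8471, 8005 and 7437 CPM per kb. mt-Co1 and mt-Cytb averaged 10552 ± 2606 and 10558 ± 2455 CPM per kb in Nynrin CKO, closer than the spread between libraries, and 6389 ± 444 and 5451 ± 627 CPM per kb in controls (SD, n = 4 each). At the lower end were mt-Nd2 at 425, mt-Nd6 at 377 and mt-Nd3 at 141 CPM per kb. The lowest, mt-Nd3, is parted only by a tRNA from mt-Co3, which had 3272 CPM per kb. Averaged over all libraries, the 22 tRNA records had fewer reads per kb than any mRNA, from 0.478 CPM per kb for mt-Ts2 to 120 CPM per kb for mt-Tl1. How fully the amplified cDNA captured each member is not known here. Levels of different members are therefore levels of reads, and their order is not one of RNA amounts. In controls alone, mt-Tl1 at 128 ± 25.4 CPM per kb and mt-Nd3 at 117 ± 23.7 CPM per kb differed by less than their spread (SD, n = 4). Gene lengths were 204 to 1824 bases for mRNAs and 59 to 75 bases for tRNAs. Some members share reads with nuclear copies (described below), and with the counts of these copies added the means over all libraries were 14321 CPM per kb for mt-Atp6, 9645 for mt-Co1 and 340 for mt-Nd3. The order of the highest mRNAs therefore depends on how shared reads were counted, which is not known here, and with copies added mt-Nd3 lay at 287 CPM per kb in controls, above mt-Tl1.

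**Figure D1:**
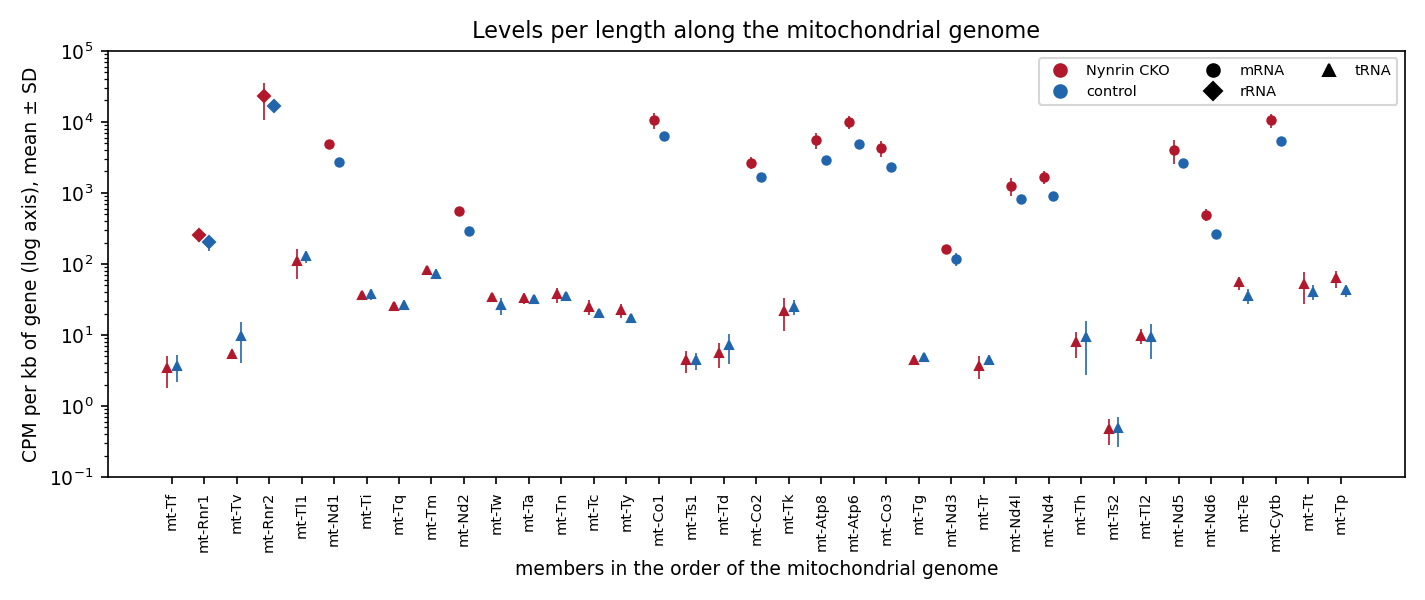
Mean level in CPM per kb of gene (log axis, bars SD, n = 4 libraries each) of the 37 members in genome order, Nynrin CKO left of control, with circles for mRNAs, diamonds for rRNAs and triangles for tRNAs. mt-Rnr2 stands highest, and the tRNAs lie lowest, with mt-Tl1 near mt-Nd3.

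The largest tRNA signal, mt-Tl1 for leucine, lies between mt-Rnr2 and mt-Nd1 and is shown because the records on its sides behaved differently (below). In mammals this gene also holds the binding site of a mitochondrial transcription termination factor. It lies at MT:2676-2750 (mm10, plus strand) in the GENCODE transcripts:
mt-Tl1: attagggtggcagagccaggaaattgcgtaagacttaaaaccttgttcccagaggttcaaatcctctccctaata

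All 13 mRNAs were higher on average in Nynrin CKO HSCs, and 7 of them passed the test: mt-Nd1, mt-Nd2, mt-Nd4, mt-Nd6, mt-Cytb, mt-Atp6 and mt-Atp8. Summed over the 13, mRNAs reached 45322, 45153, 68789 and 68991 CPM in Nynrin CKO 1 to 4, against 34540, 29782, 31699 and 33104 CPM in controls 1 to 4. Every Nynrin CKO library was above every control, and Nynrin CKO 3 and 4 were above 1 and 2. TMM factors were 0.805 in Nynrin CKO 3 and 4 and 1.02 to 1.16 in the other libraries, which raises CPM in 3 and 4. Unscaled shares, given below, show a smaller gap between these pairs. Log2 fold changes ran from 0.49 to 1.01, with a median of 0.89, beside a median of -0.09 over all 27573 genes tested. Over all genes 2.22% passed upward and 0.588% downward (edgeR quasi-likelihood test, adjusted p threshold 0.05), which is 611 genes higher and 162 lower; other scalings gave 13 and 22 (RLE), 225 and 251 (upper quartile) and 59 and 318 (total counts). Libraries lay apart in 10 of the 13, each with Nynrin CKO higher, and over all genes this held for 9.52%, against 4.83% apart with Nynrin CKO lower. DESeq2 called 10 of the 13 higher, beside 6.22% of all genes.

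The number of members that passed changed with the fit. It was 0 with RLE factors, with mitochondrially encoded genes left out of scaling, without a filter on low counts and with a replicate block. It was also 0 with the Xist class as a term, with similar Nynrin CKO libraries summed and without any single library other than control 4. All 13 mRNA log2 fold changes remained positive in each of these fits. Few genes of any kind passed there. Over all genes 13 passed upward with RLE factors, 25 without mitochondrially encoded genes in scaling and 33 without the filter. With the Xist term 4 did, and with the replicate block or summed libraries 0. Without single libraries other than control 4, 1 to 6 did. The number of members was 10 with library set as a term, where 1221 of all 27573 genes passed upward. Among libraries with more receptor reads it was 9 (median mRNA log2 fold change 0.63), and 2168 of all genes passed upward. Among those with few, where control 4 is the only control, the median mRNA log2 fold change was 1.02.

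**Figure D2:**
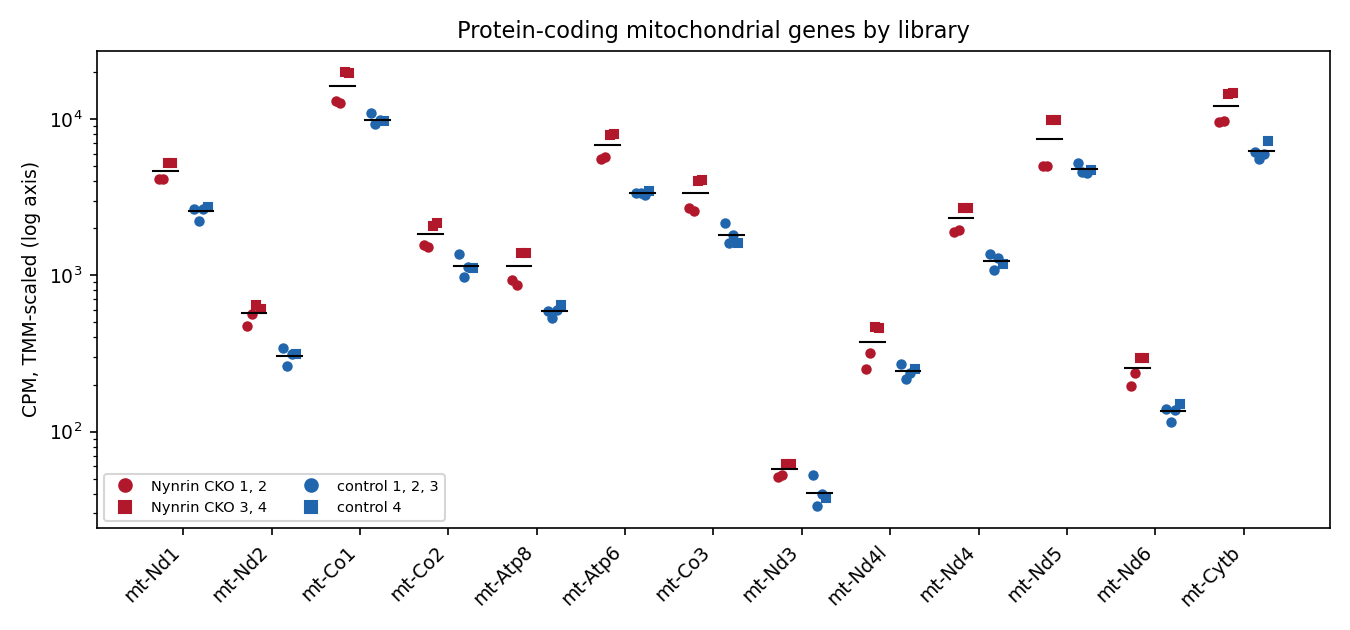
TMM-scaled CPM (log axis) of the 13 protein-coding mitochondrial genes in each library, Nynrin CKO left of control, with lines at the group means, circles for the set with more receptor reads and squares for the set with few. Nynrin CKO libraries lie above all controls for 10 genes, and overlap them for mt-Nd3, mt-Nd4l and mt-Nd5.

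Complex I, which passes electrons from NADH to ubiquinone, takes 7 subunits from mitochondrial DNA, and 4 of their mRNAs rose. mt-Nd1 (MT:2751-3707) measured 4125, 4120, 5184 and 5204 CPM in Nynrin CKO 1 to 4, against 2671, 2223, 2650 and 2744 CPM in controls 1 to 4 (log2 fold change 0.86, SE 0.15, edgeR adjusted p = 0.0394). For mt-Nd2 (MT:3914-4951) the values were 473, 568, 648 and 612 CPM in Nynrin CKO, against 340, 261, 312 and 311 CPM in controls (log2 fold change 0.91, SE 0.14, edgeR adjusted p = 0.0345). In both genes the groups lay apart, with Nynrin CKO 3 and 4 the highest libraries.

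Of the neighbouring mt-Nd4l and mt-Nd4 only mt-Nd4 passed, and the difference between the 2 was not tested. With nuclear copies added (described below) their log2 fold changes were 0.80 and 0.87. mt-Nd4 (MT:10167-11544) stood at 1903, 1941, 2699 and 2699 CPM in Nynrin CKO, against 1368, 1076, 1289 and 1188 CPM in controls (log2 fold change 0.91, SE 0.17, edgeR adjusted p = 0.0407). By contrast mt-Nd4l (MT:9877-10173) had 251, 320, 469 and 457 CPM in Nynrin CKO, against 272, 218, 237 and 252 CPM in controls (log2 fold change 0.61, SE 0.20, edgeR adjusted p = 0.125). Nynrin CKO 1 lay inside the control range. The genes are translated from a shared transcript and their records overlap, with the shared bases in capitals (MT:10147-10193, mm10, plus strand, GENCODE transcripts):
mt-Nd4l end and mt-Nd4 start: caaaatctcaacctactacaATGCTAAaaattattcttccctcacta

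Also of complex I, mt-Nd5 (MT:11742-13565) differed between the pairs of Nynrin CKO libraries. Its values were 4964, 5022, 9766 and 9774 CPM in Nynrin CKO 1 to 4, against 5239, 4595, 4512 and 4681 CPM in controls 1 to 4. Nynrin CKO 1 and 2 lay within the control range and 3 and 4 were far above it, and the gene did not pass (log2 fold change 0.63, SE 0.26, edgeR adjusted p = 0.215). Its log2 fold change was 0.06 among libraries with more receptor reads and 1.06 among those with few. mt-Nd3 (MT:9459-9806) had 51.5, 52.8, 62.5 and 62.1 CPM in Nynrin CKO and 52.4, 33.3, 39.9 and 37.4 CPM in controls (log2 fold change 0.49, SE 0.15, edgeR adjusted p = 0.107), and control 1 lay within the Nynrin CKO range.

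The mRNA of the minus strand, mt-Nd6 (MT:13552-14070), rose as well. It measured 194, 237, 294 and 296 CPM in Nynrin CKO, against 139, 116, 138 and 149 CPM in controls (log2 fold change 0.91, SE 0.16, edgeR adjusted p = 0.0386). Relative to the summed mitochondrial mRNA of the same library it did not pass (log2 fold change 0.11, SE 0.12, edgeR adjusted p = 0.519), nor relative to all other members (log2 fold change 0.31, SE 0.20, edgeR adjusted p = 0.509). Per 1000 counts on the 12 plus-strand mRNAs there were 4.30, 5.27, 4.30 and 4.31 counts on mt-Nd6 in Nynrin CKO 1 to 4, against 4.05, 3.90, 4.37 and 4.53 in controls 1 to 4. The groups overlap in this measure. Whether the counting used strand is not stated in those sources available here, so reads of mt-Nd6 and of antisense RNA from the other strand cannot be told apart. Its 3' end runs into that of mt-Nd5 on the opposite strand, and the shared bases are in capitals (MT:13532-13565 plus strand and MT:13552-13585 minus strand, mm10, GENCODE transcripts):
mt-Nd5 end: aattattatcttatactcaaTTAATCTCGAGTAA
mt-Nd6 end: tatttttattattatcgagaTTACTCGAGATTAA

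Cytochrome b is the single mitochondrially encoded part of complex III, which hands electrons on to cytochrome c. Its gene mt-Cytb (MT:14145-15288) stood at 9596, 9698, 14486 and 14535 CPM in Nynrin CKO 1 to 4 and at 6168, 5576, 5954 and 7248 CPM in controls 1 to 4. The groups lay apart and the gene rose (log2 fold change 0.95, SE 0.20, edgeR adjusted p = 0.0453).

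Complex IV, which reduces oxygen, takes its catalytic core from mt-Co1, mt-Co2 and mt-Co3, and none of these passed although the libraries lay apart in each. mt-Co1 (MT:5328-6872) measured 13058, 12584, 19803 and 19770 CPM in Nynrin CKO, against 10826, 9201, 9787 and 9669 CPM in controls (log2 fold change 0.72, SE 0.20, edgeR adjusted p = 0.0812). mt-Co2 (MT:7013-7696) ran from 1521 to 2158 CPM in Nynrin CKO and from 972 to 1357 CPM in controls, and mt-Co3 (MT:8607-9390) from 2559 to 4085 CPM in Nynrin CKO and from 1603 to 2172 CPM in controls. For mt-Co2 the log2 fold change was 0.68 with an SE of 0.17, and for mt-Co3 it was 0.89 with an SE of 0.20 (edgeR adjusted p = 0.0641 and adjusted p = 0.0510). In all of these, 4 of 4 Nynrin CKO libraries were above the highest control (two-sided exact permutation p = 0.0286 on log2(CPM + 1), the smallest that 4 against 4 can give).

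ATP synthase gave the largest fold change. mt-Atp6 (MT:7927-8607), subunit a of the proton channel, measured 5551, 5665, 7911 and 7957 CPM in Nynrin CKO 1 to 4, against 3342, 3363, 3255 and 3473 CPM in controls 1 to 4 (log2 fold change 1.01, SE 0.17, edgeR adjusted p = 0.0379). The controls lay close together and the Nynrin CKO libraries were well above them. mt-Atp8 (MT:7766-7969), a small subunit that helps to anchor the channel, had 932, 864, 1393 and 1383 CPM in Nynrin CKO and 594, 535, 599 and 644 CPM in controls (log2 fold change 0.95, SE 0.18, edgeR adjusted p = 0.0410). The genes share 43 bases (MT:7927-7969, mm10, plus strand, GENCODE transcripts), so reads there belong to both records, and the start codon of mt-Atp6 is in capitals:
mt-Atp8/mt-Atp6 overlap: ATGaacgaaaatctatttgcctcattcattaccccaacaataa

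The shares of the complexes in mitochondrial mRNA differed slightly. ATP synthase genes took 14.3%, 14.5%, 13.5% and 13.5% of mitochondrial mRNA counts in Nynrin CKO 1 to 4, against 11.4%, 13.1%, 12.2% and 12.4% in controls 1 to 4. Complex I genes took 26.4% to 27.8% in Nynrin CKO and 28.3% to 29.2% in controls, and neither range touched that of the other group. Shares of complex III (21.1% to 21.5% in Nynrin CKO, 17.9% to 21.9% in controls) and of complex IV (36.9% to 38.1% in Nynrin CKO, 37.4% to 41.6% in controls) overlapped. No test was made of these shares. Relative to mitochondrial mRNA, none of the 13 genes passed in either direction. At an unadjusted p under 0.05 there were 0 downward and 1, mt-Atp6, upward (log2 fold change 0.20, SE 0.08, edgeR adjusted p = 0.135). The 13 genes themselves form the denominator of this scale, so a rise that they share cannot appear on it.

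**Figure D3:**
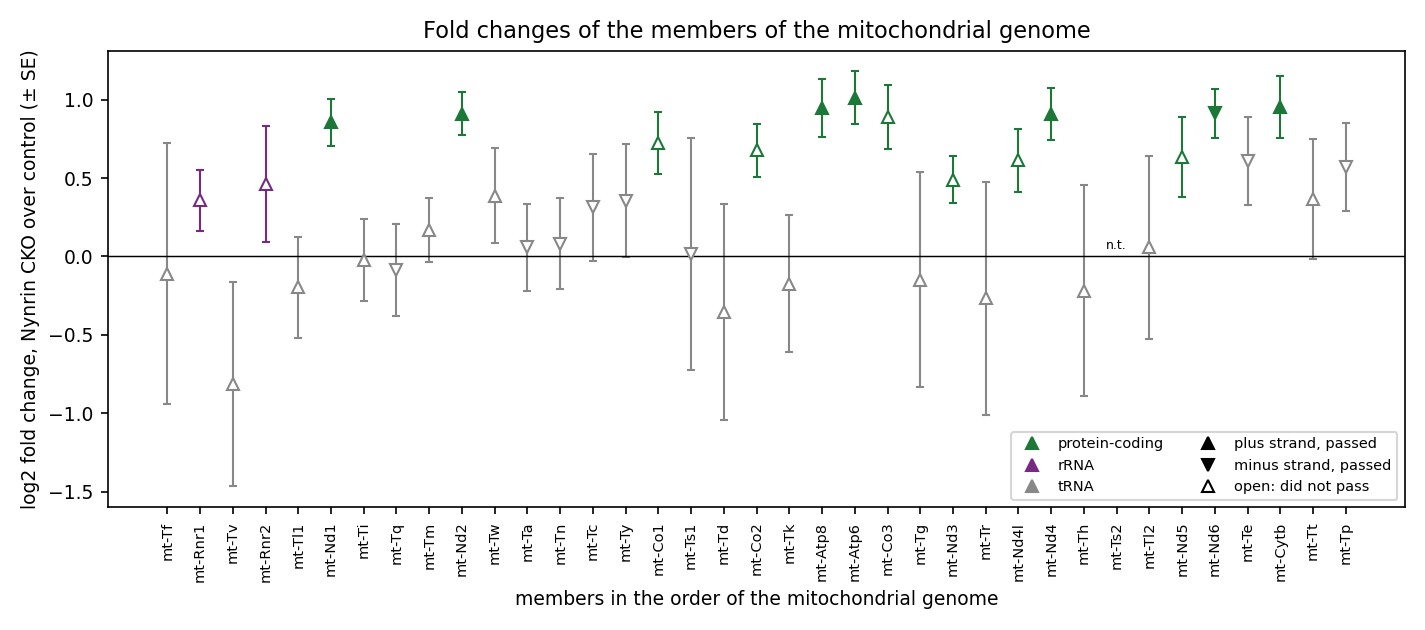
Log2 fold change, Nynrin CKO over control, with SE bars from the edgeR fit, for members in genome order. Colours give the class, triangles pointing up and down the plus and minus strand, filled symbols an adjusted p under 0.05, and n.t. a gene too low to be tested. All 13 mRNAs lie above 0, filled ones among them only, and tRNAs scatter about 0.

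Neither rRNA passed, and the groups overlapped in both. mt-Rnr2 had 20543, 18801, 53987 and 53244 CPM in Nynrin CKO 1 to 4, against 33561, 24326, 24334 and 24105 CPM in controls 1 to 4. Nynrin CKO 1 and 2 were below every control and 3 and 4 above every control, so the average (log2 fold change 0.46, SE 0.37, edgeR adjusted p = 0.594) describes neither pair. Within the set with more receptor reads its log2 fold change was -0.48 (SE 0.14, edgeR adjusted p = 0.0526), and within the set with few it was 1.15 (SE 0.19, edgeR adjusted p = 0.00739). Whether the sets differ in this was not tested.

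mt-Rnr1 measured 213, 195, 290 and 288 CPM in Nynrin CKO, against 259, 172, 160 and 178 CPM in controls, and the groups overlap through control 1 (log2 fold change 0.36, SE 0.19, edgeR adjusted p = 0.373). The ratio of mt-Rnr2 to mt-Rnr1 counts was 96.4, 96.3, 186 and 185 in Nynrin CKO 1 to 4, and 130 to 152 in controls. The controls thus lay between the Nynrin CKO pairs.

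Set against mRNA of the same library, rRNA counts were 0.458, 0.421, 0.789 and 0.776 of the mRNA counts in Nynrin CKO 1 to 4, against 0.979, 0.823, 0.773 and 0.734 in controls 1 to 4. Relative to mitochondrial mRNA, mt-Rnr1 lay lower in 4 of 4 Nynrin CKO libraries than in any control (log2 fold change -0.45, SE 0.14, edgeR adjusted p = 0.0637), and mt-Rnr2 overlapped (log2 fold change -0.44, SE 0.21, edgeR adjusted p = 0.181). Neither passed. On this scale 15.8% of all genes passed downward and 0.102% upward, and the median of all genes was -0.82. Negative values were found for 25941 of 27573 genes, and how many genes lay apart on this scale is not given here. DESeq2 gave mt-Rnr1 an adjusted p of 0.0209 on the same scale, and adding the nuclear copies described below gave an edgeR adjusted p of 0.0417. With the counts of all other members as denominator the log2 fold change of mt-Rnr1 was -0.235 (SE 0.19, edgeR adjusted p = 0.584). For mt-Rnr2 the value was -0.97 (SE 0.12, edgeR adjusted p = 0.00114) among libraries with more receptor reads and 0.10 (SE 0.15, edgeR adjusted p = 0.642) among those with few.

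As a share of all unscaled counts, the 13 mRNAs took 4.65%, 4.61%, 5.53% and 5.55% in Nynrin CKO 1 to 4, against 3.75%, 3.31%, 3.65% and 3.45% in controls 1 to 4, with no overlap. The rRNAs took 2.13%, 1.94%, 4.36% and 4.31% in Nynrin CKO, against 3.68%, 2.72%, 2.82% and 2.53% in controls. The share of mRNA thus separated the groups and that of rRNA did not.

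**Figure D4:**
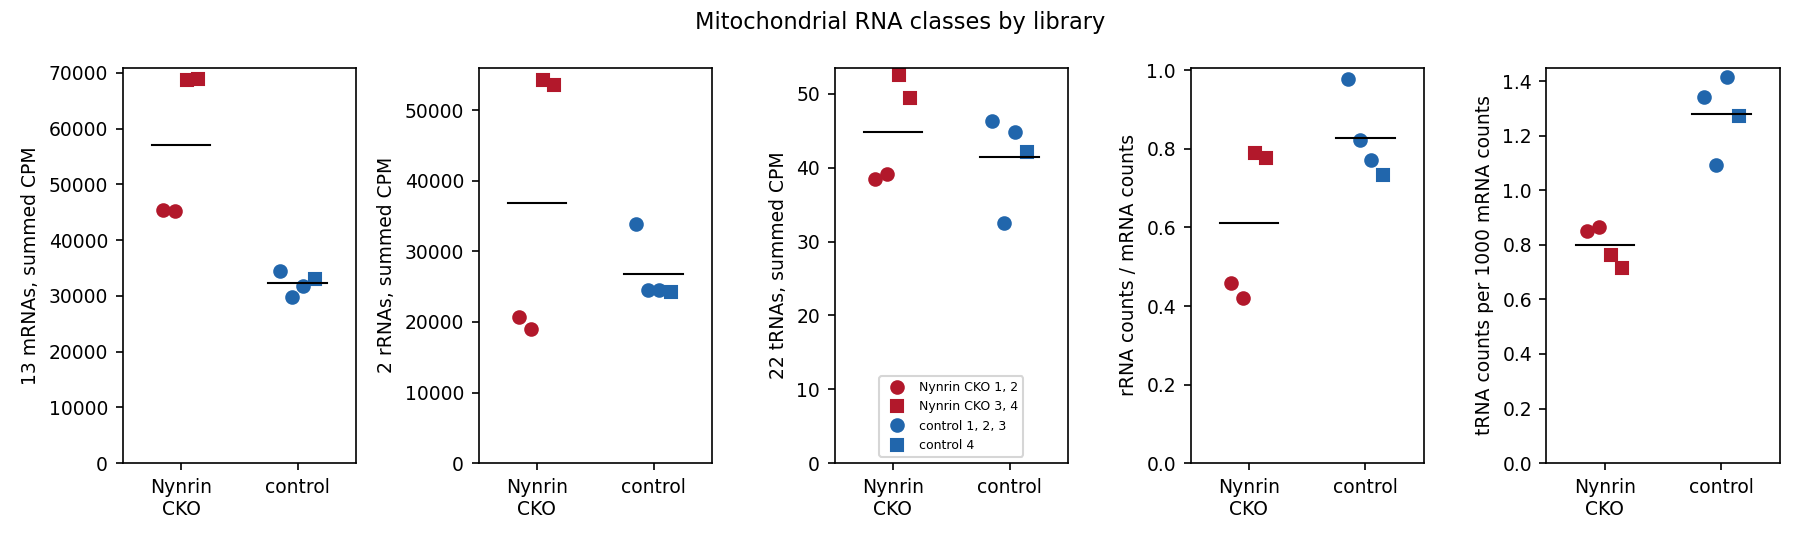
Summed CPM of mRNAs, rRNAs and tRNAs, the ratio of rRNA to mRNA counts, and tRNA counts per 1000 mRNA counts, for each library, Nynrin CKO left of control; lines are group means, circles the set with more receptor reads and squares the set with few. mRNA sums of 45153 CPM and more in Nynrin CKO clear the highest control at 34540 CPM, and tRNA counts per 1000 mRNA counts lie lower in every Nynrin CKO library.

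None of the 21 tRNAs tested passed, and 0 reached an unadjusted p under 0.05 (edgeR). tRNA records held 1738, 1894, 2385 and 2054 counts in Nynrin CKO 1 to 4, against 1919, 1366, 1908 and 2205 counts in controls 1 to 4. At that depth single tRNAs were imprecise, with mt-Ts2, the lowest, at 1 or 2 counts a library and not tested. Log2 fold changes ran from -0.82 to 0.61 with a median of 0.02, and 11 of 21 were positive, beside 12281 of 27573 genes.

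Summed tRNA levels overlapped, at 38.5, 39.1, 52.5 and 49.4 CPM in Nynrin CKO and 46.3, 32.5, 44.8 and 42.1 CPM in controls. Per 1000 mRNA counts there were 0.850, 0.866, 0.764 and 0.716 tRNA counts in Nynrin CKO 1 to 4, against 1.34, 1.09, 1.41 and 1.27 in controls 1 to 4. Every Nynrin CKO library was below every control in this ratio. All 21 tRNAs had negative log2 fold changes relative to mitochondrial mRNA, as did 25941 of all 27573 genes. The tRNA median was -0.75 beside -0.82 for all genes, so tRNAs did not stand out from other genes on this scale. Of the tRNAs 1 passed, as against 15.8% of all genes.

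That gene was mt-Tl1, whose sequence is given above, between an rRNA that lay below every control in Nynrin CKO 1 and 2 and an mRNA that rose. It had 4.74, 5.55, 11.4 and 11.8 CPM in Nynrin CKO 1 to 4, against 10.1, 7.19, 11.8 and 9.28 CPM in controls 1 to 4 (log2 fold change -0.20, SE 0.32, edgeR adjusted p = 0.817). Relative to mitochondrial mRNA it was lower in all 4 Nynrin CKO libraries (log2 fold change -1.07, SE 0.24, edgeR adjusted p = 0.0192). In Nynrin CKO 1 and 2 its level was below every control, as for mt-Rnr2.

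By strand, 4 of 13 tested plus-strand tRNAs and 7 of 8 minus-strand tRNAs had positive log2 fold changes, with medians of -0.15 and 0.20. Over all genes 12281 of 27573 were positive. SEs of single tRNAs reached 0.83 on the plus strand and 0.74 on the minus strand, and the difference between strands was not tested. Minus-strand tRNAs summed to 0.775, 0.687, 0.711 and 0.600 of the plus-strand sum in Nynrin CKO, against 0.554, 0.598, 0.484 and 0.602 in controls, and only Nynrin CKO 4 lay below the highest control. The most positive were mt-Te for glutamate and mt-Tp for proline, on the minus strand at either side of mt-Cytb. mt-Te had 3.15, 3.08, 4.41 and 4.52 CPM in Nynrin CKO, against 3.04, 1.69, 2.58 and 2.60 CPM in controls (log2 fold change 0.61, SE 0.28, edgeR adjusted p = 0.278). Its libraries lay apart. mt-Tp ran from 3.14 to 5.41 CPM in Nynrin CKO and from 2.07 to 3.48 CPM in controls, with overlap (log2 fold change 0.57, SE 0.28, edgeR adjusted p = 0.319). mt-Tm for methionine, which lies before mt-Nd2, measured 5.65 ± 0.87 CPM in Nynrin CKO and 5.03 ± 0.762 CPM in controls (SD, n = 4 each). Reads of a tRNA and of an uncut neighbour or of the opposite strand cannot be told apart in these counts.

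Part of the mitochondrial genome has a near-identical copy in the nuclear genome, and the table counts reads on both. Records Gm29216, Gm28661, Gm10925, Gm28437, Gm28438, Gm10222 and Gm28439 lie side by side on chromosome 1 from 24611535 to 24616197 (mm10, minus strand). They match mt-Co1 in part, mt-Co2, mt-Atp6, mt-Co3, mt-Nd3, mt-Nd4l and mt-Nd4 in part. In the GENCODE transcripts 5 are identical to their member over the aligned 294 to 876 bases, and the others differ at 1 base. The differing bases are in capitals below; the substitutions are A1066T in mt-Co1 and T3C in mt-Nd3, counted from 1 at the first base of the mitochondrial gene (MT:6390-6413 and MT:9459-9481 plus strand; chromosome 1:24616165-24616188 and 1:24613097-24613119 minus strand):
mt-Co1: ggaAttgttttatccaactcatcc
Gm29216: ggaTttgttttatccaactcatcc
mt-Nd3: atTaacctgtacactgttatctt
Gm28438: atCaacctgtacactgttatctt

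Most copies of whole genes had counts near those of their members. Gm28437 had 94.5% to 99.8% of the mt-Co3 count in Nynrin CKO and 90.7% to 97.7% in controls. For Gm28438 and mt-Nd3 the range was 135% to 142% in Nynrin CKO and 138% to 149.8% in controls. Gm29216, which covers 31.3% of mt-Co1, had 14.2% to 15.98% in Nynrin CKO and 11.9% to 13.01% in controls. Gm28439, which covers 63.6% of mt-Nd4, had 33.1% to 38.3% of its count in Nynrin CKO and 39.4% to 40.8% in controls. In these last pairs the groups did not overlap, with the Nynrin CKO share higher for Gm29216 and lower for Gm28439, and no test was made.

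For 2 copies single controls stood apart. Gm10925 had 99.3%, 94.4%, 99.9% and 96.4% of the mt-Atp6 count in Nynrin CKO 1 to 4, against 91.8%, 54.5%, 99.2% and 84.6% in controls 1 to 4. Gm10222 had 85.1% to 100.04% of the mt-Nd4l count in Nynrin CKO, 90.5% to 96.9% in controls 1 to 3, and 4 counts beside 13190 in control 4. No source used here says how the counting treated reads with several matches, so whether such reads were counted at both places or split cannot be told apart. With the copies added to their members, 8 members passed, beside 609 of 27566 genes higher in all. In that fit mt-Atp6 had a log2 fold change of 1.13 and mt-Nd3 of 0.45. For mt-Nd4l it was 0.80, against 0.61 without copies, and for mt-Nd4 it was 0.87. Another 10 nuclear copies with at least 90% identity over 50 bases held at most 1.02% of their member's count.

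**Figure D5:**
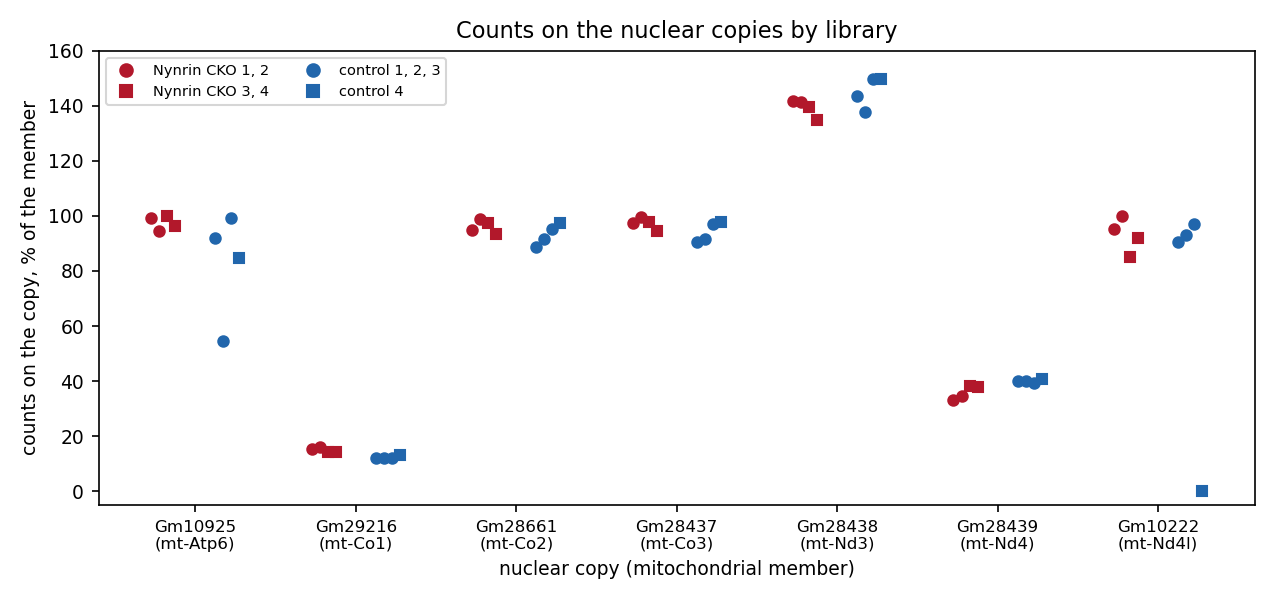
Counts on each of the 7 chromosome 1 copies as a percentage of the count on its mitochondrial member (named in brackets), for each library, Nynrin CKO left of control, circles for the set with more receptor reads and squares for the set with few. Copies of mt-Atp6, mt-Co2, mt-Co3 and mt-Nd4l lie mostly near the level of their member, that of mt-Nd3 at 135% to 149.8%, with Gm10222 in control 4 at 0.030%.

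The nuclear genes that copy, transcribe and translate mitochondrial DNA are given by lists, to be read beside all genes, of which 2.22% rose and 0.588% fell, and 13.2% were higher and 5.78% lower at an unadjusted p under 0.05. Differences between lists were not tested. Of 20 genes of mitochondrial DNA replication and maintenance none passed (edgeR, with 5 higher and 1 lower at an unadjusted p under 0.05; median log2 fold change 0.10). Tfam, which packages the DNA and starts transcription, averaged 61.2 ± 4.24 CPM in Nynrin CKO and 47.5 ± 4.94 CPM in controls (log2 fold change 0.36, edgeR adjusted p = 0.0934), and Ssbp1, the single-strand binding protein, had a log2 fold change of 0.44 (edgeR adjusted p = 0.0948). None of 19 transcription genes passed either, with 5 higher and 2 lower at an unadjusted p under 0.05 and a median of 0.20. Tefm, the elongation factor, averaged 24.9 ± 0.604 CPM in Nynrin CKO and 17.6 ± 1.97 CPM in controls (SD, n = 4 each; log2 fold change 0.50, edgeR adjusted p = 0.0521). Ppargc1b, a coactivator of mitochondrial genes, had a log2 fold change of -0.55 (edgeR adjusted p = 0.0722).

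Among 47 genes of mitochondrial RNA processing, modification and decay, 2 rose and 1 fell, with a median log2 fold change of 0.10. Mrm3, which methylates the large rRNA, averaged 35.2 ± 1.81 CPM in Nynrin CKO and 22.4 ± 2.19 CPM in controls (log2 fold change 0.65, edgeR adjusted p = 0.0382). Hsd17b10, a subunit of the enzyme that cuts tRNA 5' ends, averaged 142 ± 4.16 CPM in Nynrin CKO and 93.9 ± 13.3 CPM in controls (log2 fold change 0.60, edgeR adjusted p = 0.0408). Fastkd3, an RNA-binding protein of mitochondria, fell to 9.98 ± 2.23 CPM in Nynrin CKO, against 21.7 ± 3.58 CPM in controls (log2 fold change -1.12, edgeR adjusted p = 0.0394).

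No aminoacyl-tRNA synthetase of 23 passed, with 5 higher and 1 lower at an unadjusted p under 0.05 and a median of 0.08. Kars, which charges lysine tRNA in cytosol and mitochondria, had a log2 fold change of 0.55 (edgeR adjusted p = 0.0517) and the valine enzyme Vars2 one of -0.61 (edgeR adjusted p = 0.0831). Of 37 genes of translation factors and assembly 4 rose and 0 fell, with a median of 0.32 and 33 positive. These were the release factor Mtrf1 (log2 fold change 0.72, edgeR adjusted p = 0.0345), the complex III factor Uqcc3 (0.65, edgeR adjusted p = 0.0408), Coa3, which acts on newly made mt-Co1 protein (0.67, edgeR adjusted p = 0.0430), and the complex I factor Ndufaf3 (0.59, edgeR adjusted p = 0.0492).

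The sum of granulocyte precursor markers moved with the pairs of Nynrin CKO libraries. All 10 were detected and had positive log2 fold changes, and 2 passed. They summed to 475 and 522 CPM in Nynrin CKO 1 and 2 and 4081 and 4115 CPM in Nynrin CKO 3 and 4, against 205 to 357 CPM in controls. Most of the sum in Nynrin CKO 3 and 4 was Mpo, at 2829 and 2824 CPM. Ltf did not follow the pairs, at 19.9, 19.5, 19.5 and 22.6 CPM in Nynrin CKO 1 to 4. In Prtn3 and S100a9 the groups overlapped. The part of these markers in the mitochondrial values was not tested. In sorted cells measured in bulk, a change in the mix of cells and a change in RNA per cell cannot be told apart.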

How the data were processed

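Libraries were made from amplified cDNA of sorted HSCs, per the labels' protocols. The deposited table holds raw read counts for each gene, per the file headers, and per the submitters' processing notes the genome was mm10. Not given in the sources used here are aligner, counter, strand setting and the handling of multiply matching reads. Members and gene lists were chosen with earlier results of these data known.

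Groups and replicate numbers came from the labels. The main test was that of edgeR 4.0.16 (R 4.3.3). The filter filterByExpr kept 27573 genes, among them 36 of the 37 members, scaling used TMM factors, and a robust quasi-likelihood F-test compared 4 with 4 libraries, with Benjamini-Hochberg adjustment over all tested genes and a threshold of 0.05. A further fit took the summed counts of the 13 mitochondrial mRNAs as library size. Class sums and shares carry no test. SDs are over 4 libraries. Exact permutation ran over 70 assignments. Nuclear copies were found with blastn 2.17.0+ among GENCODE M21 transcripts, whose coordinates match the table for all 37 members. Sets of libraries were split at 300 CPM of receptor reads (summed over olfactory and vomeronasal receptor genes) and by Xist at 100 CPM. Within-set values are contrasts between the 4 combinations of group and set, and there control 4 is assumed to vary like the others. Total counts ran from 36942835 to 56437299, so mRNA values rest on 1399 counts or more and tRNA values on 1 to 517. The fit was tested on simulated counts.

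Named were all mRNAs and rRNAs, the tRNAs that passed, the 4 highest and the lowest tRNA, and for each nuclear list up to 4 members that passed or otherwise the 2 with the smallest p. Alternatives were other scaling factors and filters, scaling without mitochondrially encoded genes, DESeq2 1.42.0, a replicate block, terms for library set and Xist class, sums of similar libraries, all other members as denominator and removal of each library. Adding copies to their members was chosen after seeing the data.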

Additional observations from a re-analysis of the deposited data

Results flagged for a closer look

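Of 124 groups of 4 values examined, 7 had a library far from the other 3, and chance alone flags about 1 in 20. In control 1, mt-Rnr2 stood at 33561 CPM, with the other controls at 24105 to 24334 CPM, and the rRNA sum, which it dominates, at 33820 CPM with the others at 24283 to 24498 CPM. In control 4, Gm10222 held 0.030% of the mt-Nd4l count, with controls 1 to 3 at 90.5% to 96.9%. In Nynrin CKO 2, mt-Nd6 made 5.27 counts per 1000 plus-strand mRNA counts, with 4.30 to 4.31 in the other Nynrin CKO libraries, and 0.524% of all mitochondrial mRNA counts, with 0.428% to 0.429% in the others. In the same library mt-Co1 took 27.9% of mitochondrial mRNA counts, with 28.7% to 28.8% in the others. In Nynrin CKO 3, tRNAs took 0.00423% of all counts, with 0.00395% to 0.00399% in the others. Causes were not tested.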

How the results depend on the processing

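Few-read and more-read libraries are the sets with few and with more receptor reads. Depth limits the tRNA records, and the close likeness of Nynrin CKO 1 to 2 and of 3 to 4 limits all p-values. Of 37 members, 7 passed upward by edgeR. The number was 0 with RLE factors, with mitochondrially encoded genes left out of scaling, without a filter and with the replicate block. It was also 0 with the Xist class as a term and with similar libraries summed. Other fits gave 4 with upper-quartile factors, 7 with total counts and 8 with a stricter filter or copies added. The more-read libraries gave 9, and library set as a term gave 10. Over all genes 693 of 17026 passed upward with the stricter filter. In the more-read libraries 2168 of 27573 did, and with library set as a term 1221 of 27573. No number is given for the few-read libraries, where control 4 is the only control. The number of members ran from 0 to 7 when single libraries were left out, and was 7 only without control 4. DESeq2 called 10, beside 6.22% of all genes. Downward, 1 member, mt-Tl1, passed in the more-read libraries, beside 1025 of 27573 genes. None passed downward in any other fit or without any single library (0 to 0). Of all genes, the median log2 fold change was -0.34 with total counts and -0.20 with upper-quartile factors.

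The mRNA median of 0.89 was 0.58 with total counts and 0.63 in the more-read libraries, and 0.81 to 0.995 with single libraries left out; all 13 values were positive in every fit. The rRNA median of 0.41 was -0.21 and 0.93 for more-read and few-read libraries, and 0.26 to 0.58 with single libraries left out. The tRNA median of 0.02 was -0.088 with upper-quartile factors, -0.28 with total counts, 0.14 in the few-read libraries, and -0.15 to 0.17 with single libraries left out. Reversed were mt-Rnr2 in the more-read libraries (-0.48), mt-Tm with total counts (-0.079) and in the few-read libraries (-0.083), and mt-Tl1 in the few-read libraries (0.32) and with single libraries left out (-0.39 to 0.0087, positive without Nynrin CKO 1).

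Relative to mitochondrial mRNA, mt-Rnr1 (-0.45) passed with DESeq2 (-0.45, adjusted p = 0.0209) and with copies added (-0.49, edgeR adjusted p = 0.0417), and ranged from -0.51 to -0.31 with single libraries left out. mt-Rnr2 (-0.44) passed with library set as a term (-0.61) and in the more-read libraries (-0.97), reversed in the few-read libraries (0.10), and ranged from -0.59 to -0.29. mt-Nd6 (0.11) reversed in the few-read libraries (-0.073) and ranged from 0.03 to 0.15. With all other members as denominator the values were -0.235 for mt-Rnr1, -0.43 for mt-Rnr2 and 0.31 for mt-Nd6, and none passed. Causes were not tested. Same-numbered libraries of both groups had correlations of 0.153, 0.125, -0.129 and 0.28 in their deviations, so the numbers are not taken to pair them, and not every library correlated best with its own number. With the replicate block 0 members and 0 genes in all passed.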

Other observations

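Markers of other cell types gave these sums. B cell markers (0 of 8 passed) summed to 52.5 to 95.9 CPM in Nynrin CKO and 38.7 to 45.1 CPM in controls. Most of that sum was Cd79b, at means of 60.8 CPM in Nynrin CKO and 36.1 CPM in controls, and 6 of 8 log2 fold changes were positive. T and NK cell markers (1 of 8, Nkg7) summed to 138 to 272 CPM in Nynrin CKO and 49.98 to 80.8 CPM in controls. Nkg7 alone averaged 201 CPM in Nynrin CKO and 60.8 CPM in controls, nearly the whole sum. Of the 8, 6 had positive log2 fold changes. Monocyte and macrophage markers (2 of 9, Mpeg1 and Ly6c2) summed to 90.8 to 278 CPM in Nynrin CKO and 58.5 to 75.3 CPM in controls. Erythroid markers (3 of 10, Car2, Car1 and Klf1) summed to 2077 to 2468 CPM in Nynrin CKO and 1113 to 1417 CPM in controls, with Nynrin CKO 1 and 2 above 3 and 4. Car2 made up most of this, at means of 2014 CPM in Nynrin CKO and 1189 CPM in controls, and 9 of 10 log2 fold changes were positive. Endothelial markers (0 of 8) summed to 151 to 263 CPM in Nynrin CKO and 154 to 188 CPM in controls. Every marker was detected in at least 1 library.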
